A study of Gallus gallus with 4 samples.

Results

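Transcripts of the posterior and the anterior optic tectum of the chick embryo (Gallus gallus) were compared at Hamburger-Hamilton stage HH35 on 1 two-colour microarray, chosen by its title from the 4 arrays of the series. Posterior tectum, labelled with Cy5, was set against anterior tectum, labelled with Cy3. In each channel the RNA came from 60 pooled pieces of tecta that had been cut across this axis, and no genotype, strain or treatment is given for the embryos. The other 3 arrays held the same axis at HH37 and the axis across it, medial against lateral, at stages HH30 and HH35. There was no biological replicate, no technical replicate and no dye swap. Every difference below is therefore an effect size from these 2 pools, with no test, and pooling averages over embryos without measuring their spread. With 1 array in each comparison, no test of a difference between arrays was possible either. A gene-specific effect of the dyes cannot be told apart from a difference between the pools.

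The optic tectum is the midbrain roof, the main target of retinal axons in birds. Axons from the temporal retina end anteriorly and those from the nasal retina end posteriorly, and graded ephrin-A ligands, which repel growth cones carrying EphA receptors, are known to help set this order. The posterior tectum borders the isthmus, the midbrain-hindbrain boundary, whose signals are known to induce engrailed and Pax genes in the neighbouring midbrain. The anterior tectum is known to mature ahead of the posterior tectum.

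Ratios are log2 of posterior over anterior after background correction and normalization by loess within the array, so a positive value means higher in the posterior pool. Intensities are given per spot after subtraction of the local background and before normalization. The median foreground was 194 in the posterior channel and 229 in the anterior channel, so a spot of equal intensity in both channels can have a ratio above 0. An intensity depends on the probe and is compared only between the channels of 1 spot. A channel counted as well above background if its mean foreground was over 2.6 background SDs higher than the median background. Of 42034 gene probes, 59.5% met this limit in the posterior channel and 79.4% in the anterior channel. Probes paired with a gene symbol were reduced to the brightest probe of each gene, which gave 32146 measured features, 8042 genes with a symbol and 24104 probes without one. Among 8 control probes spotted at least 5 times, the SD of the log2 ratio had a median of 0.11 and a range of 0.10 to 0.20, which measures the spread of spots within the array only.

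Of the measured features, 91.9% were within 1.5-fold. This share includes 8168 features that were well above background in the anterior channel alone. The offset of 50 added in background correction also draws the ratios of dim spots toward 0. At 1.5-fold the dimmest eighth of features held 4 posterior and 12 anterior ones, against 150 and 379 in the fifth eighth from the dim end. The posterior pool was at least 2-fold higher for 49 features (0.152% of those measured) and the anterior pool for 202 (0.628%), 251 in all (0.781%). Median centring instead of loess gave 30 posterior and 679 anterior features. At 1.5-fold there were 660 posterior (2.05%) and 1947 anterior features (6.06%). Among genes with a symbol, 20 were higher in the posterior pool (0.249%) and 45 in the anterior pool (0.56%). At 3-fold the order turned, with 15 features on the posterior side and 11 on the anterior side, and at 4-fold there were 8 posterior and 6 anterior features. The anterior surplus thus lay in ratios under 3-fold. Of the 2-fold features, 48 posterior and 186 anterior ones had both channels well above background, and 0 of the 251 held saturated pixels. In the brightest eighth of features, 1 was 2-fold higher in the posterior pool and 28 in the anterior pool, against 10 posterior and 26 anterior ones in the fourth eighth from the dim end. Over 4 equal parts of the array by position the posterior count lay between 9 and 17 and the anterior count between 44 and 62.

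**Figure D1:**
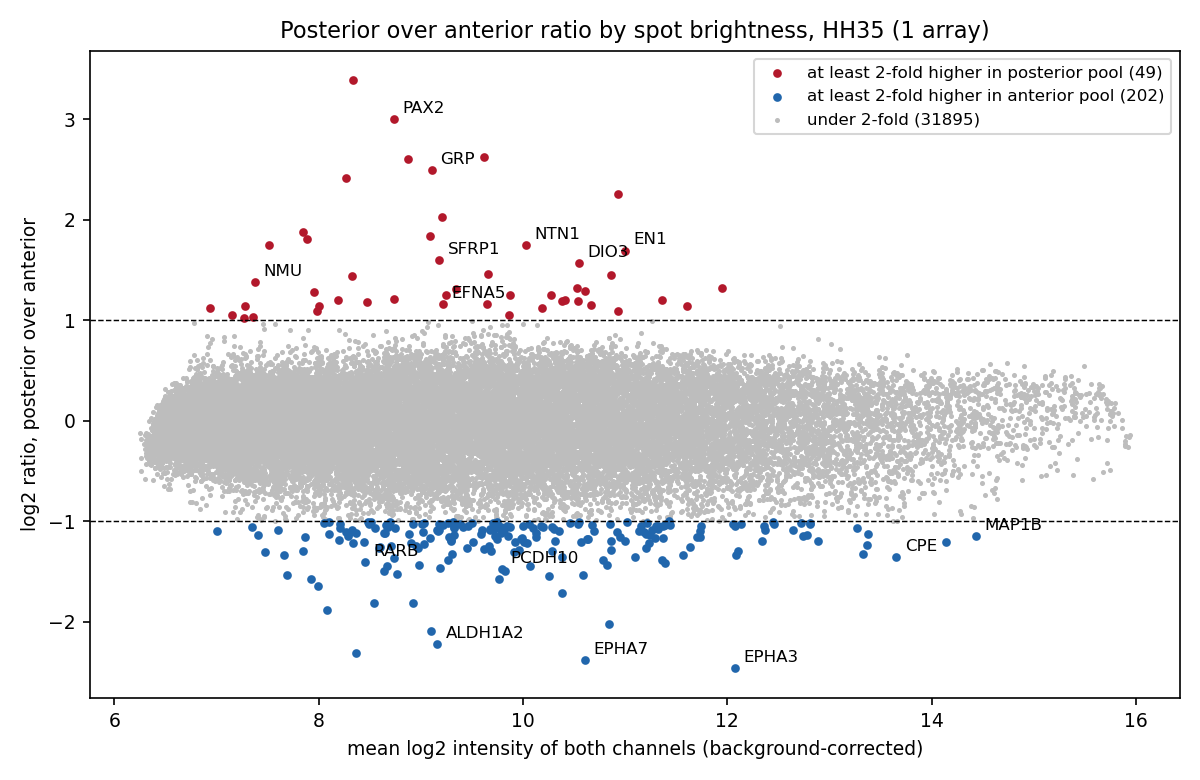
Log2 ratio of posterior over anterior (vertical axis) against the mean log2 intensity of both channels (horizontal axis) for the 32146 measured features at HH35, 1 point each. Dashed lines mark 2-fold, red points are the 49 features past it on the posterior side and blue points the 202 on the anterior side. PAX2 lies near the top at 3.0 and EPHA3 at the bottom at -2.46.

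Of the genes of the isthmus and its midbrain neighbourhood, PAX2 had the highest ratio among genes with a symbol and EN1 the fourth, while most of their list lay within 1.5-fold. PAX2, a paired-box transcription factor of the midbrain-hindbrain boundary, had an intensity of 1024 in the posterior pool, against 112 in the anterior pool, a log2 ratio of 3.0. EN1, the engrailed homeobox gene, had 3230 in the posterior pool and 1211 in the anterior pool, a ratio of 1.69, on a probe named through its description. LMX1B, a LIM homeobox gene of the isthmus and of ventral midbrain neurons, was dim on both sides at 105 posterior and 39 anterior. Its ratio was 0.81, and 1.51 with plain background subtraction, which adds no offset. These 3 of the 10 measured isthmic genes were at least 1.5-fold posterior and 0 were 1.5-fold anterior, where 2.01% and 6.96% of all genes with a symbol were. The others lay within 1.5-fold. FGF8, the organiser's signal, stood at 0.12, its targets DUSP6 and ETV5 at 0.26 and 0.25, and its inhibitor IL17RD at -0.11. PAX5, which works beside PAX2 at the boundary, was at 0.08 with an intensity of 62442 posterior and 50566 anterior. With median centring PAX5 was at 0.38. Whether the upper limit of the scanner affected the ratio of so bright a spot was not tested. GBX2, a gene of the hindbrain side of the boundary, was at -0.25, and IRX2 at -0.18.

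Of 21 genes in the isthmic list, 10 were measured, with a median of 0.19 against -0.06 over all genes with a symbol, and of -0.05 with the mediolateral HH30 ratio subtracted. WNT1 was not well above background and EN2 had no probe paired with its symbol here. In these pooled tissues, fewer cells of a type and less RNA per cell cannot be told apart. A probe outside the rule for naming, singled out after its values were seen and described only as an engrailed protein, had 7562 in the posterior pool and 4447 in the anterior pool (0.94). The hindbrain list had 6 of 12 genes measured, and HOXB3 was at 0.48. Its median was -0.09, and 0.19 in the deposited ratios turned to posterior over anterior. HOXA2, HOXA3, HOXB1 and HOXB4 were well above background in the anterior channel only. The part of hindbrain tissue in the PAX2 and EN1 ratios was not tested.

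Genes of the ventral midbrain and of floor plate signalling stood on both sides. NTN1, netrin-1, a guidance molecule of the floor plate, had 1638 in the posterior pool and 586 in the anterior pool, a ratio of 1.75. The netrin gene NTN3, whose probe the file lists under the symbol of NTN1, was at -0.02. Tyrosine hydroxylase TH, the rate-limiting enzyme of dopamine synthesis, had 102 posterior and 35 anterior (0.84). PITX3, a transcription factor of dopaminergic neurons, stood at 0.69 and the homeobox gene NKX6-2 at 0.64. SHH, the ventralising signal, was at 0.29, the transcription factor SIM1 at 0.44, and the SHH receptor PTCH1 at -0.19. Of the 16 measured genes of 26, 6 were at least 1.5-fold higher in the posterior pool and 1 in the anterior pool, where the background over all genes with a symbol was 2.01% and 6.96%. For 1 of the 6 the posterior channel missed the background limit, and its size is not known. The list median was 0.19, and -0.003 with median centring, and its side thus depended on the normalization. NTN1, TH, PITX3, LMX1B and NKX6-2 had both channels well above background.

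Of the EphA receptors 4 of 5 measured were on the anterior side, and all 3 measured ephrin-A ligands on the posterior side. Over all genes with a symbol 57% were on the anterior side and 43% on the posterior side. EPHA3, a receptor tyrosine kinase for ephrin-A ligands, had an intensity of 1635 in the posterior pool, against 10904 in the anterior pool, the lowest ratio of any feature at -2.46. EPHA7, of the same class, had 550 posterior and 3926 anterior (-2.38). EPHA4, which also binds ephrin-B ligands, had 3343 posterior and 6600 anterior (-0.75), and EPHA6 had 1223 posterior and 2622 anterior (-0.74). EPHA5 alone of the 5 measured receptors was on the posterior side, at 0.29. EPHA1 was not well above background. Of the ligands, EFNA5, known in chick for repelling temporal retinal axons, had 734 posterior and 391 anterior on its brighter probe (1.16), while its other probe gave 0.09. EFNA2, the other classical posterior ligand of the tectum, had 29172 posterior and 20680 anterior (0.42). On the mediolateral HH35 array EFNA2 stood higher, at 0.58, Cy5 over Cy3. EFNA6, whose probe was also named by description, missed the background limit in the anterior channel and had a normalized posterior excess of 1.61-fold. Such a fold sets the bright channel against the dim probe's own normalized signal, which lay over the lowest signal well above background. It equals the normalized ratio, carries the noise of a dim channel and is no strict lower bound.

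In the B class the ratios were smaller. The 4 measured EphB receptors lay between -0.16 for EPHB6 and 0.10 for EPHB2, with EPHB1 at -0.07 and EPHB3 at 0.09. EFNB1 stood at 0.48 and EFNB2 at -0.10. Of these 6, 0 reached 1.5-fold, where 2.01% of all genes with a symbol did on the posterior side and 6.96% on the anterior side. The medians were -0.75 for EphA receptors, 0.68 for ephrin-A ligands, 0.01 for EphB receptors and 0.19 for ephrin-B ligands, the last turning to -0.03 with median centring. With the mediolateral HH35 ratio subtracted, the EphA median was -0.47, with 4 of 5 receptors below 0. The ephrin-A median was then 0.27, with 1 of 3 ligands below 0.

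**Figure D2:**
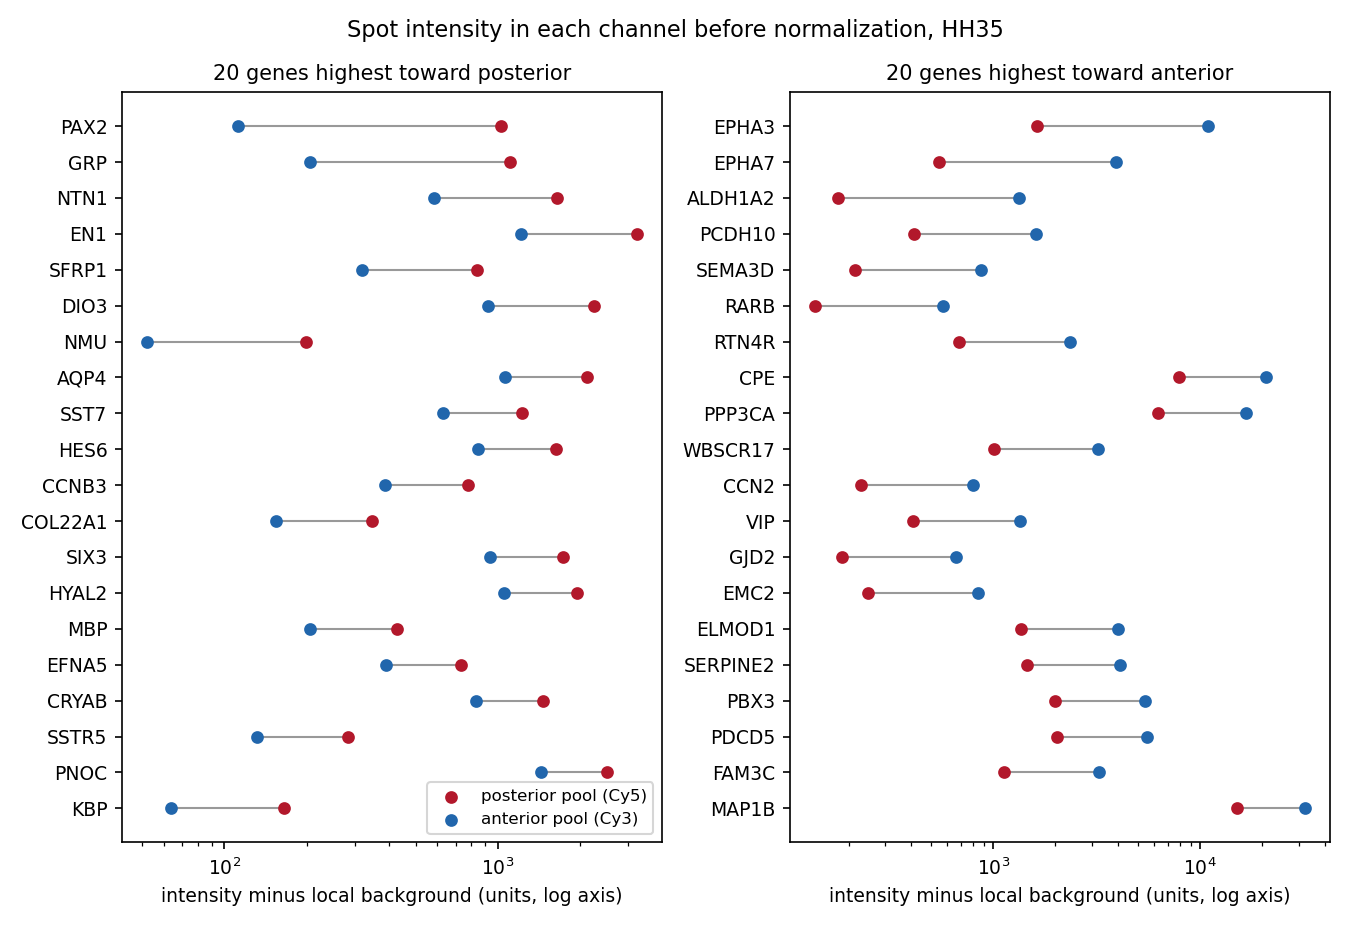
Spot intensity minus local background on a log axis in the posterior pool (red, Cy5) and the anterior pool (blue, Cy3), before normalization, for the 20 genes with the highest and the 20 with the lowest ratio among those with both channels well above background. PAX2 spans 1024 posterior to 112 anterior and EPHA3 1635 posterior to 10904 anterior, and the points of all 40 genes lie in the order of their side.

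Of the 12 measured retinoic acid genes, 2 were past 2-fold on the anterior side and 0 on the posterior side. Over all genes with a symbol these shares were 0.56% and 0.249%. ALDH1A2, the enzyme that makes retinoic acid, had 178 in the posterior pool and 1333 in the anterior pool, a ratio of -2.22. RARB, a retinoic acid receptor whose own transcription is known to be induced by retinoic acid, had 137 posterior and 573 anterior (-1.40). On the other side, CYP26C1, which breaks retinoic acid down, stood at 0.77. Its Cy5 over Cy3 ratio on the mediolateral arrays was 0.64 at HH35 and 1.21 at HH30. STRA6, a receptor for the plasma carrier of retinol, had 3152 posterior and 2478 anterior (0.62). The remaining 8 of the 12 measured genes lay between -0.16 for RDH10 and 0.40 for RBP4, with the receptor RARA at 0.37, the degrading enzyme CYP26A1 at 0.04 and the synthesising enzyme ALDH1A1 at 0.06. ALDH1A2 is also a known marker of meninges. The meningeal list without it had 8 of 12 genes measured and a median of 0.05. Its collagen COL1A2 was at 0.17, its transcription factor FOXC1 at 0.14 and decorin, DCN, at -0.60. The part of meninges in the ALDH1A2 ratio was not tested.

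Neuropeptide genes were spread widely, from 2.49 to -1.24. GRP, gastrin-releasing peptide, had 1111 in the posterior pool and 206 in the anterior pool (2.49). NMU, neuromedin U, had 199 posterior and 52 anterior (1.38), and SST7, a somatostatin precursor gene of the chick, had 1222 posterior and 628 anterior (1.25). PNOC, the precursor of nociceptin, had 2496 posterior and 1441 anterior (1.09). ADCYAP1, the precursor of PACAP, stood at 0.88, cholecystokinin, CCK, at 0.69, neuropeptide Y, NPY, at 0.62 and POMC at 0.59. The other CCK probe gave 0.11. In the opposite direction, vasoactive intestinal peptide, VIP, had 410 posterior and 1354 anterior (-1.24). TAC1, the precursor of substance P, had 950 posterior and 2664 anterior on its brighter probe (-1.10), but its other probe gave 0.04. PENK, the enkephalin precursor, was at -0.47, and galanin, GAL, at 0.24. Of 24 genes 17 were measured, 8 at least 1.5-fold higher in the posterior pool and 2 in the anterior pool (2.01% and 6.96% of all genes with a symbol), with a median of 0.39. SSTR5, a somatostatin receptor, was on the side of SST7 at 283 posterior and 132 anterior (1.09).

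**Figure D3:**
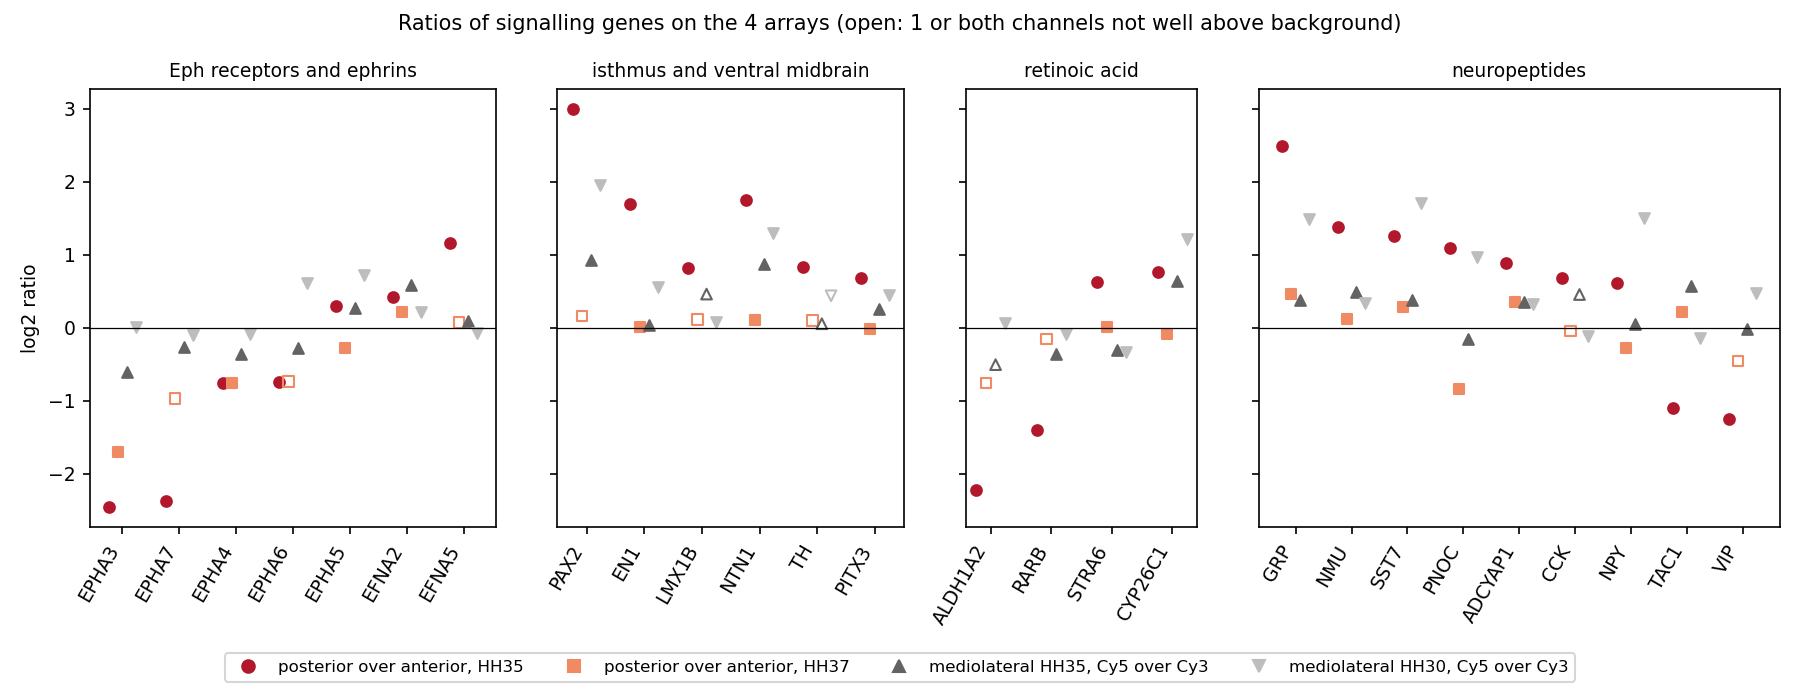
Log2 ratios of Eph receptors and ephrins, genes of the isthmus and ventral midbrain, retinoic acid genes and neuropeptides on the 4 arrays of the series, 1 point per gene and array, with Cy5 over Cy3 as the direction on all 4. Open points have at least 1 channel not well above background. PAX2 lies at 3.0 at HH35 and EPHA3 at -2.46 at HH35 and -1.71 at HH37.

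Several genes of dividing precursors were higher in the posterior pool by modest amounts. CCNB3, a mitotic cyclin, had 776 posterior and 388 anterior (1.25). PLK1, a mitotic kinase, stood at 0.93, the checkpoint kinase BUB1 at 0.75 and RRM2, a subunit of ribonucleotide reductase, at 0.74, while TYMS, thymidylate synthase, was at -0.63. Of 48 cell cycle genes 33 were measured, with 22 above 0, a median of 0.23, and 7 at least 1.5-fold posterior against 3 anterior. Over all genes with a symbol 43% were above 0, 2.01% were 1.5-fold posterior and 6.96% were 1.5-fold anterior. CENPF and MCM6, which are among the 3, missed the background limit in the posterior channel. Among progenitor genes, ID3, an inhibitor of neuronal differentiation factors, had 1331 posterior and 858 anterior (0.95). PAX6 was at 0.82, SOX3 at 0.81 and the RNA-binding protein MSI1 at 0.69. The receptor NOTCH1 gave 0.69, 0.65 and 0.79 on its 3 probes. FGFR3 and the radial glial gene FABP7 lay on the other side, at -0.56 and -0.43. In all, 6 of 20 measured progenitor genes were at least 1.5-fold posterior and 0 anterior, beside the same 2.01% and 6.96%, with a median of 0.14 (0.41 with the mediolateral HH35 ratio subtracted). HES6, a Hes factor that promotes neurogenesis, had 1633 posterior and 846 anterior (1.25). NEUROD4 had a normalized posterior excess of 1.66-fold, and JAG2, a Notch ligand, had a normalized anterior excess of 1.76-fold. Each had its other channel under the background limit, so these folds are no strict lower bounds.

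Genes of maturing neurons were mostly on the anterior side. MAP1B, which binds microtubules in growing axons, had 15077 in the posterior pool and 32206 in the anterior pool (-1.15), on a probe that the file describes as claustrin. NEFM, the medium neurofilament, had 4093 posterior and 9860 anterior (-1.09). SYT1, a calcium sensor of synaptic vesicles, stood at -0.93, SYT4, of the same family, at -0.91, and ELAVL4, a neuronal RNA-binding protein, at -0.92. Of 17 measured genes of 32, 16 were below 0 and 6 were at least 1.5-fold anterior, with a median of -0.52, where 6.96% of all genes with a symbol were 1.5-fold anterior. With the mediolateral HH35 ratio subtracted, 9 of the 17 were below 0 and the median was -0.19. STMN3 alone was above 0, at 0.31. All 9 measured glutamatergic genes were on the anterior side, where 57% of all genes with a symbol lay, with a median of -0.41. The NMDA receptor subunit GRIN1 had 1007 posterior and 2417 anterior (-0.88), the glutamate transporter SLC1A2 was at -0.80 and the AMPA receptor subunit GRIA4 at -0.59. The vesicular transporter SLC17A6 stood at -0.32. GABAergic and glycinergic genes were mixed, with the receptor subunit GABRA3 at -0.72, the glycine transporter SLC6A9 at 0.69, the calcium buffer CALB2 at 0.81 and GAD1, which makes GABA, at -0.20. Among channels, the potassium channel subunit KCNAB1 was at -0.92 and the calcium channel CACNA1D at -0.90, and of 23 measured 0 were 1.5-fold posterior and 3 anterior, where 2.01% and 6.96% of all genes with a symbol were.

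Other neuronal and signalling genes among the 20 lowest included CPE, which processes neuropeptide precursors, at 7885 posterior and 20891 anterior (-1.36). PPP3CA, the catalytic subunit of calcineurin, had 6265 posterior and 16689 anterior (-1.32). RTN4R, the Nogo receptor, which restrains axon growth, had 684 posterior and 2356 anterior (-1.36). GJD2, the connexin of neuronal gap junctions, stood at -1.24, the protease inhibitor SERPINE2 at -1.17 and the homeobox gene PBX3 at -1.16. WBSCR17 was at -1.29, the matrix-associated growth regulator CCN2 at -1.25, EMC2 at -1.23, ELMOD1 at -1.22, PDCD5 at -1.16 and FAM3C at -1.15. RPS24, at -1.0, was the 1 gene of 29 measured cytoplasmic ribosomal genes past 1.5-fold, and their median was 0.00. Over all genes with a symbol 2.01% were 1.5-fold posterior and 6.96% were 1.5-fold anterior.

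Of the transcription factors of the tectum, 15 of 23 were below 0, where 57% of all genes with a symbol were. RORA, a retinoid-related orphan receptor, had 1326 posterior and 3595 anterior (-1.09). NR2F2, also an orphan nuclear receptor, had 8023 posterior and 16061 anterior (-0.93), and LHX9, a LIM homeobox gene, had 3195 posterior and 6615 anterior (-0.82). RORB had a normalized anterior excess of 1.56-fold, with its posterior channel under the background limit. LHX1, also a LIM homeobox gene, ran the other way at 7692 posterior and 5208 anterior (0.73), followed by SOX14 at 0.47. Of the 23 measured genes of 37, 1 was at least 1.5-fold posterior and 6 anterior (2.01% and 6.96% of all genes with a symbol), with a median of -0.19, which was 0.15 with the mediolateral HH30 ratio subtracted. As a check of the tissue, the midbrain markers PAX7 and MEIS2 were well above background in both pools, at 4107 posterior and 6162 anterior for PAX7 and 4132 posterior and 6633 anterior for MEIS2.

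Several adhesion and guidance genes were higher in the anterior pool. PCDH10, a protocadherin, had 414 posterior and 1612 anterior (-1.47). CDH11 had a normalized anterior excess of 2.06-fold, with its posterior channel under the limit. ALCAM, an adhesion molecule of axon bundles, stood at -1.0 and N-cadherin, CDH2, at -0.91. In the adhesion list 0 of 32 measured genes were 1.5-fold posterior and 8 were anterior, against shares of 2.01% and 6.96% over all genes with a symbol. The list median was -0.24, and -0.04 with the mediolateral HH35 ratio subtracted. SEMA3D, a secreted semaphorin, had 216 posterior and 874 anterior (-1.44), and SEMA3A was at -0.94. Opposite to these were the repellents SLIT3 and SLIT1, at 0.63 and 0.62, and NTN1. The guidance list had 3 of 43 measured genes 1.5-fold posterior and 7 anterior, beside the same shares of 2.01% and 6.96%, with a median of -0.08.

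Among Wnt genes, SFRP1, a secreted modulator of Wnt signals, had 840 posterior and 319 anterior (1.6). LGR5 was at 0.60. On the other side, DKK3 was at -1.02, WNT7B at -0.96 and the Wnt target AXIN2 at -0.73. RSPO2 had a normalized anterior excess of 1.81-fold, with its posterior channel under the background limit. Of 46 Wnt genes 37 were measured, with 20 above 0 and a median of 0.03 (-0.10 with median centring). At 1.5-fold 2 were posterior and 5 anterior. Over all genes with a symbol 43% were above 0, 2.01% were 1.5-fold posterior and 6.96% were 1.5-fold anterior. BMP antagonists lay on both sides, with FST and CHRD at 0.74 and 0.59 and GREM1, CHRDL1 and NOG at -0.52, -0.28 and -0.07. TGFB2 was at -0.63. Of 27 measured BMP and TGF-beta genes, 2 were 1.5-fold posterior and 1 anterior, beside the same 2.01% and 6.96%. Their median was 0.003. DIO3, which inactivates thyroid hormone, had 2238 posterior and 921 anterior (1.57), whereas DIO2, which activates it, was at -0.11 and the receptor THRA at 0.08. SIX3, a homeobox gene of the forebrain and eye, had 1734 posterior and 936 anterior (1.20).

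Of the glial list, AQP4, the water channel of astrocytes, had 2110 posterior and 1064 anterior (1.29). MBP, myelin basic protein, had 426 posterior and 205 anterior (1.18). The other 16 of 18 measured glial genes lay between -0.37 for PTPRZ1 and 0.52 for SPARC. The small heat shock protein CRYAB, known from the lens and from stressed cells, had 1463 posterior and 831 anterior (1.12). CRYBB2, a lens crystallin, was at 0.86. In the retina and pigment list, which holds both, 11 of 16 genes were measured. The list median was 0.09, and -0.04 in the deposited ratios turned to posterior over anterior. RPE65, of pigment epithelium, missed the background limit in the posterior channel. The part of these tissues in the CRYAB ratio was not tested. Also past 2-fold on the posterior side were COL22A1 at 1.20, the hyaluronidase HYAL2 at 1.19 and KBP, the kainate binding protein, at 1.03.

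Lists of blood, endothelium, meninges, pericytes, microglia and muscle had medians between -0.09 and 0.16. The haemoglobin genes HBBA and HBA1 were at 0.03 and 0.01. In endothelium, 5 of 12 measured genes were above 0, near the share of 43% over all genes with a symbol. The list ran from CDH5 at -0.68 to FLT1 at 0.48, with PECAM1 at -0.01, KDR at -0.03 and ESAM at 0.41. Mitochondrial respiration genes had a median of -0.33 and chaperones of -0.26. With the mediolateral HH35 ratio subtracted the medians were -0.01 and 0.04. Among chaperones, the chaperonins TCP1 and HSPD1 stood at -0.82 and -0.75 and the small heat shock protein HSPB1 at 0.64.

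**Figure D4:**
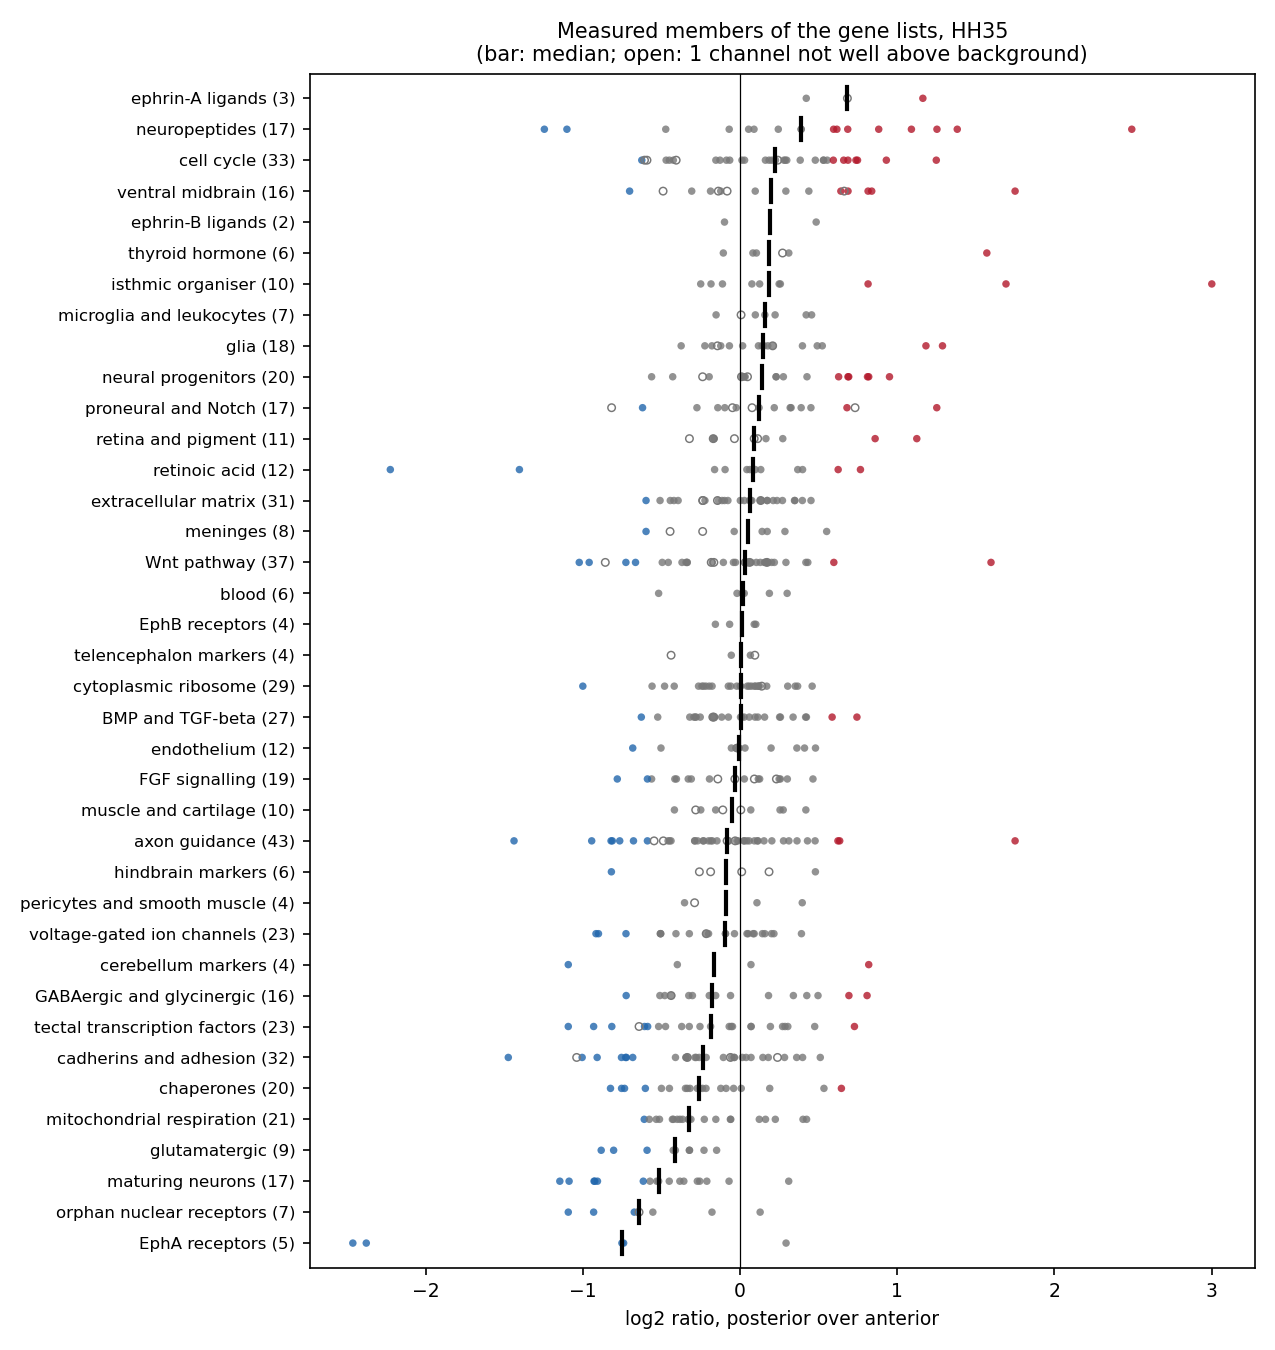
Log2 ratio of posterior over anterior at HH35 for every measured member of the 38 gene lists, ordered by the list median (black bar), with the number measured in brackets. Filled red and blue points are at least 1.5-fold posterior or anterior with both channels well above background, and open points have 1 channel below that limit. Ephrin-A ligands have the highest median, 0.68, and EphA receptors the lowest, -0.75.

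Probes of the same gene gave a check on the ratios within the array. Of 1037 genes with at least 2 measured probes, the median spread between the highest and lowest probe was 0.25 on the log2 scale, and in 10% it was above 0.62. This check hardly reaches the 2-fold genes, because 62 of the 65 had 1 measured probe. For the other 3, the probes did not agree. EFNA5 gave 1.16 and 0.09, TAC1 gave -1.10 and 0.04, and MYL9, a myosin light chain, gave -2.31 and 0.33. The bright MYL9 probe, at 77 posterior and 755 anterior, missed the limit in the posterior channel, for a normalized anterior excess of 4.96-fold. SLC36A4 had an excess of at least 2.9-fold there, from 1 probe. At 1.5-fold, 61 genes had several probes, of which 48 had every probe on the same side and 9 had every probe past 1.5-fold. NOTCH1 was the 1 posterior gene of these 9. The anterior ones, named after their values were seen, were ATRX, DYNC1I2, HEATR5B, IPO7, NDNF, PIK3R1, SLITRK4 and TRIP11. SLITRK4, a membrane protein of neurites, gave -0.82 and -1.02, and NDNF, a secreted neurotrophic factor, gave -0.76 and -1.09.

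Most 2-fold features had no symbol. Of 186 such probes, 116 are described as cDNA or EST clones and 33 as unknown. The highest ratio of the whole array was that of cDNA clone ChEST1036g3, with 890 in the posterior pool and 54 in the anterior pool (3.39). Clone ChEST983n15 had 1676 posterior and 302 anterior, with the anterior channel under the limit. In the authors' deposited table its anterior over posterior ratio was 0.729. Clone ChEST669n15 had 3742 posterior and 941 anterior (2.25). The lowest unnamed probe, from an embryonic gonad library, had 180 posterior and 1218 anterior (-2.09).

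The HH37 array covers the same axis with other pools at a later stage. Of 97 features 2-fold higher in the anterior pool at HH35 and measured in both channels on both arrays, 83 were below 0 at HH37, where 51.3% of 15410 such features were, and 46 were at least 1.5-fold anterior (47.4%), where 14.6% were. Of 26 posterior features, 19 were above 0, where 48.7% were, and 1 was at least 1.5-fold posterior, where 1.65% were. EPHA3 stood at -2.46 at HH35 and -1.71 at HH37, PPP3CA at -1.32 and -1.37, ELMOD1 at -1.22 and -1.12, NEFM at -1.09 and -1.60, and MAP1B at -1.15 and -2.17. At the opposite extreme, EN1 stood at 1.69 at HH35 and 0.02 at HH37 and SIX3 at 1.20 and -0.02, while HSBP1, DYNLRB1 and RPS24, all near -1 at HH35, stood between -0.08 and 0.02 at HH37. DIO3 stood at 0.49 and GRP at 0.46 at HH37. For PAX2, SFRP1 and EFNA5 the posterior channel missed the limit at HH37, and their ratios there are not given. EPHA7, ALDH1A2, RARB and SEMA3D lacked a measured posterior channel there as well. In the authors' deposited table, whose ratio runs anterior over posterior, EN1 was at 0.201 at HH35 and 0.942 at HH37, and EPHA3 at 7.12 and 3.39. The ratios of HH35 and HH37 correlated with Pearson r = 0.48 (Spearman 0.48) across the 15410 features. This is a description across features that share a probe, a platform and a dye orientation.

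The mediolateral arrays carry the same dyes, and their side is given by channel only because their labels and the authors' deposited table name it in opposite ways. The mediolateral ratio at HH35, Cy5 over Cy3, correlated with the anteroposterior one with r = 0.40 across 19321 features, and that at HH30 with r = 0.16 across 19540. Of 41 posterior 2-fold features, 29 were above 0 on the mediolateral array of the same stage, where 47.4% of all were, and of 145 anterior ones 106 were below 0, where 52.6% were. Of the 41, 5 were at least 1.5-fold higher in Cy5 there (12.2%), where 1.75% of all were, and of the 145, 6 were at least 1.5-fold higher in Cy3 (4.14%), where 1.04% were. At HH30, 28 of 40 posterior features were above 0, where 50.8% were, and 17 were at least 1.5-fold higher in Cy5 (42.5%), where 1.89% were. PAX2, NTN1, GRP, SST7 and SIX3 were among these 17. Of 159 anterior features, 88 were below 0 at HH30 (55.3%), where 49.2% of all were. PAX2 stood at 0.93 on the mediolateral array at HH35 and 1.95 at HH30, NTN1 at 0.87 and 1.30, GRP at 0.38 and 1.49, SST7 at 0.38 and 1.71, and SIX3 at 0.21 and 1.42. EN1 was at 0.04 and 0.55, and EFNA5 at 0.09 and -0.07. Among anterior genes EPHA3 was at -0.61 and 0.01 and EPHA7 at -0.27 and -0.09. DIO3 and HES6 had the opposite sign there, at -0.55 and -0.29 for DIO3 and -0.37 and -0.80 for HES6. With the HH35 mediolateral ratio subtracted, 15 of the 62 named genes and probes past 2-fold fell under it and 0 changed sign. With that of HH30 subtracted, 18 fell under 2-fold and 2 changed sign, SST7 to -0.45 and SIX3 to -0.22.

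**Figure D5:**
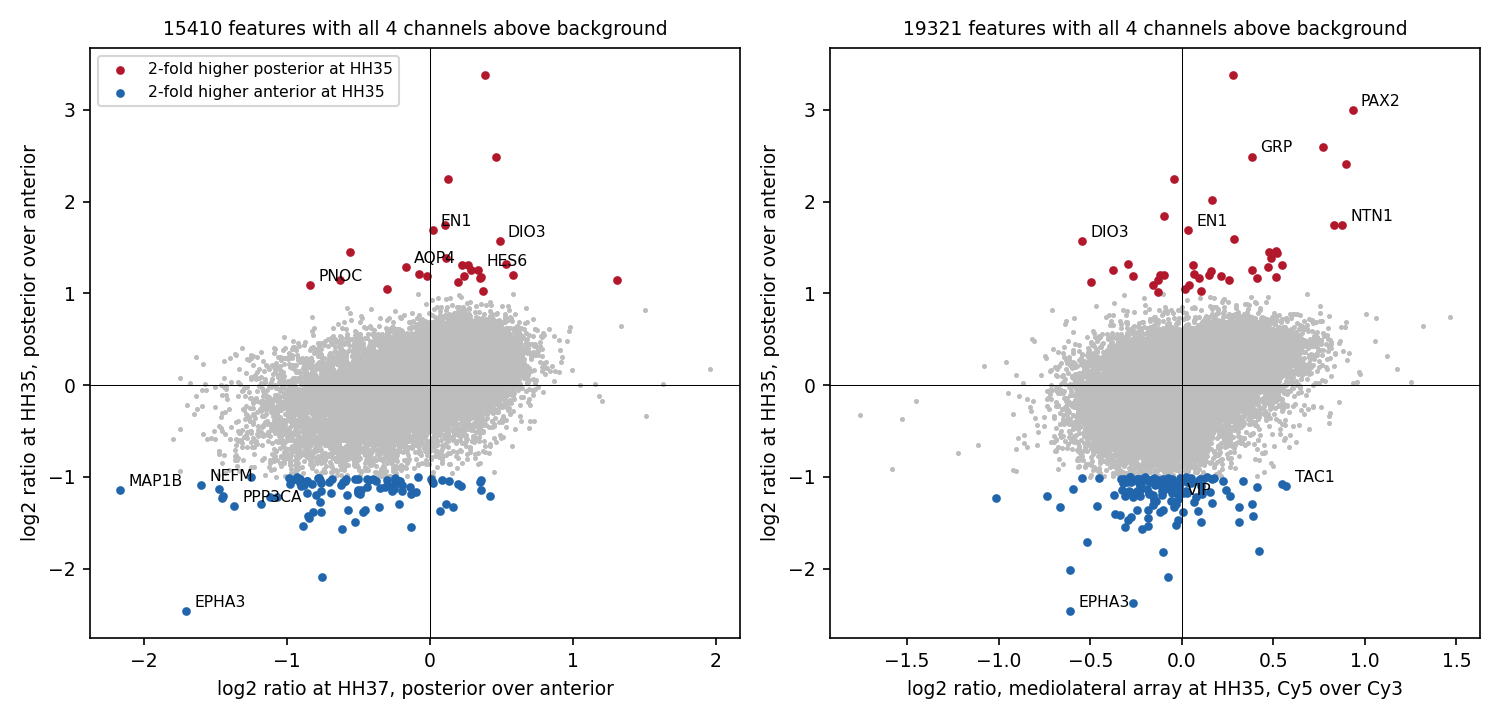
Log2 ratio of posterior over anterior at HH35 (vertical axes) against the HH37 ratio of posterior over anterior (left, 15410 features) and against the mediolateral ratio at HH35, Cy5 over Cy3 (right, 19321 features), for features with both channels well above background on both arrays. Red and blue points are at least 2-fold posterior and anterior at HH35. EPHA3 lies at -1.71 at HH37, whereas EN1 lies at 0.02.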

How the data were processed

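Per the file headers, the deposited spot data hold linear intensity values before any normalization, the percent of saturated pixels, and spot flags, in the column format of GenePix. Agilent Feature Extraction is what the submitters' processing notes name. A ratio for each probe comes in the authors' deposited table, and the deposited value table holds the log2 of it. Both run anterior over posterior and were turned, with normalization steps that the sources used here leave unstated. After turning, the value table had a median of 0 and correlated with the ratios computed here at r = 0.85 over 41824 probes.

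From the spot tables, background was corrected by normexp (offset 50) and ratios by loess (span 0.3, with weight 0 for control spots) with R 4.3.3 and limma 3.58.1, steps that were tested on simulated data. The design planned for Feature Extraction columns, and GenePix columns took their place. Spots marked not found (2188 of the gene probes) were left out of the measured features, but they took part in the normalization. Where a channel was not well above background, the fold was taken against a substitute signal. That was the higher of the probe's own signal there and the lowest signal above background of that channel. Where the own signal was the higher, the fold equals the normalized ratio and is no strict lower bound. Symbols came from the files and a chicken gene table of assembly GRCg7b, used for names only, which gave 10073 probes of 8615 genes a symbol. Another 75 with conflicting names stayed unnamed, and EN1 and EFNA6 were named from descriptions. Tables and plots were made with pandas 2.3.3, numpy 2.4.6, matplotlib 3.10.9 and Python 3.11.15.

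The groups and the 38 lists were chosen with earlier results of these data known. Genes were named by rule, namely the 20 highest and 20 lowest with both channels above background, up to 4 per side with 1 channel, all measured members of the Eph, ephrin, isthmic, ventral, retinoic acid and peptide lists, 4 per side of other lists, disagreeing probes, unnamed extremes, and those most and least alike on other arrays. Alternatives covered background, normalization, filters, probe choice, thresholds, the deposited ratios and subtraction of a mediolateral ratio. That ratio can also hold differences along its own axis, so it does not isolate an effect of the dyes. The arrays' number limits the precision. Some genes of the lists are counted but not reported here by name.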

Additional observations from a re-analysis of the deposited data

Results flagged for a closer look

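Named genes past 2-fold at HH35 whose ratio of posterior over anterior lay on the other side of 0 at HH37 by more than the median spot SD of 0.11, with both channels well above background on both arrays, were singled out. The difference between stages was not tested, since each stage is 1 array. AQP4 stood at 1.29 at HH35 and -0.17 at HH37. PNOC stood at 1.09 at HH35 and -0.84 at HH37. TAC1 stood at -1.10 at HH35 and 0.22 at HH37, and its other probe gave 0.04 at HH35. SH3GLB1, a membrane-curving protein that was 1633 in the posterior pool and 4187 in the anterior pool at HH35 (-1.04), stood at 0.36 at HH37.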

How the results depend on the processing

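No paired analysis was possible because each comparison is 1 array. The 49 posterior and 202 anterior features past 2-fold became 114 and 570 with plain background subtraction, 30 and 679 with median centring, 288 and 797 in the value table and the authors' deposited table, 84 and 228 with the mediolateral HH35 ratio subtracted, and 160 and 458 with that of HH30 subtracted, an alternative chosen after seeing the data. Thresholds of 1.5-fold and 3-fold gave 660 and 1947, and 15 and 11. With offset 16, both channels required, no filter, the median of a gene's probes or no saturated spots, the counts stayed within 1.5 times. Genes with several agreeing probes numbered 0, against 9 with median centring, 4 in the deposited tables, 1 and 7 with the HH35 and HH30 mediolateral ratios subtracted, and 0 elsewhere. Of the 49 and 202 features, 49 and 198 were past 2-fold with plain subtraction, 29 and 202 with median centring, and 43 and 196 in the value table.

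With both channels required, MYL9 turned to 0.33, since its other probe took over. Subtracting the mediolateral HH30 ratio turned SST7 to -0.45 and SIX3 to -0.22. The cause was not tested. Median centring put 11 of the 62 named genes and probes past 2-fold under it. Of 38 lists, the median changed sign in 9 with median centring and in 4 in the deposited tables. It did so in 7 with the mediolateral HH35 ratio subtracted and in 5 with that of HH30. Among lists with a median beyond the spot SD of 0.11, it turned for ephrin-B ligands (-0.03) and the ventral midbrain (-0.003) with median centring. With the HH35 ratio subtracted it turned for the ventral midbrain (-0.06), chaperones (0.04) and cerebellum markers (0.13). With the HH30 ratio subtracted it turned for isthmic genes (-0.05), the ventral midbrain (-0.19) and tectal transcription factors (0.15). Signal limits the posterior side most, with 16 features well above background in the posterior channel alone and 8168 in the anterior alone.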

Other observations

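Among probes without a symbol that were singled out by their descriptions after their values were seen, a bHLH transcript described as like NSCL1 stood at 1.16, and one described as enhancer of split related protein-7 stood at 1.15 at HH35 and 1.31 at HH37. A second probe described as Hyal2 stood at 1.20, beside HYAL2 at 1.19. On the anterior side, probes described as Bcl11b and Slitrk4 stood at -1.43 and -1.41. The probe that carries the symbol BCL11B stood at -0.26 and the probes of SLITRK4 at -0.82 and -1.02.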
